A study of Mus musculus with 6 samples.

Results

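The actin nucleation, capping and turnover genes are a list of 51 genes that build, cap, sever, bundle or recycle actin filaments, and they were compared between E0771 breast carcinoma cells with and without knockdown of lamin A/C. Members were found by an exact match of their symbol to the gene column of the table of unique molecular identifiers (UMIs), which holds 10520 genes. Of the 51 listed genes 46 were matched, and 45 of these were among the 8969 genes that passed the filter on low counts. Cyfip1, Enah, Diaph1, Diaph3 and Ssh1 had no row under these symbols and are not counted among the matched members. Cfl2, the muscle-type cofilin, was matched but too low to be tested.

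E0771 is a mouse mammary adenocarcinoma line of C57BL/6 origin, grown in DMEM with serum, pyruvate and HEPES. The shControl cells had received a lentivirus with the shControl vector, which the study's methods list as an empty vector, and the shLmna cells a lentivirus with an shRNA against Lmna, and both were selected with puromycin at 3 µg/ml and expanded. Each group had 3 libraries made by MARS-seq, a method that sequences the 3′ end of polyadenylated RNA and counts each captured molecule once by its UMI. The labels do not state that the 3 libraries of a group came from separate cultures or from independent transductions. The p-values therefore measure the spread between these libraries and cannot be taken as a spread between independent transductions. The titles of the knockdown libraries name the construct shRNA4, whereas their genotype reads shLmna.

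Actin filaments grow from nuclei made by the Arp2/3 complex, which starts branches on existing filaments, or by formins, which start and extend unbranched ones. The Arp2/3 complex is switched on by N-WASP and by WAVE, a multi-subunit complex that responds to Rac. Profilin and thymosin β4 handle actin monomers, capping protein stops growth at the barbed end, and cofilin and coronins take old filaments apart. In carcinoma cells these factors drive the lamellipodia and filopodia of the migrating front, and bundlers such as fascin and plastins hold filopodial filaments together.

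Lmna served as the check of the labels. It was at 810, 874 and 936 CPM (UMIs of the gene per 1e+06 UMIs of the library, scaled by TMM factors) in the shControl libraries and at 388, 376 and 379 CPM in the shLmna libraries, a fall of 2.29-fold (log2 fold change -1.20 ± 0.13 SE, edgeR adjusted p = 3.55e-05). The libraries held 1846208 to 3242051 UMIs, of which 2.16% to 2.78% belonged to the 46 members. No library was a copy of another library of its group. The chi-square of the counts over genes, divided by its degrees of freedom, was 4.80 to 7.70 between them, above sampling noise. Libraries of different groups were not compared in this way. Plate positions 13 to 15 held shControl and 16 to 18 held shLmna, and the plate position and the group cannot be told apart.

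The libraries were uneven in 2 ways that touch the values below. Melanocytic genes, which mark the B16F10 melanoma cells also used in the study, were present in shControl 3 and in shLmna 2. The summed level of the 4 melanocytic markers in the table (Pmel, Tyrp1, Dct and Mlana, of 5 listed) was 718 CPM in shControl 3 and 581 CPM in shLmna 2, against 0.375 to 4.71 CPM in the other 4 libraries. The luminal epithelial markers, 4 of 9 in the table and mostly Krt8, were at 266 to 323 CPM in all libraries, and Epcam among them was at 13.3 to 14.4 CPM in shControl and 4.25 to 11.7 CPM in shLmna. The fibroblast markers, 4 of 6 and with Acta2 among them, summed to 19.6 to 22.8 CPM in shControl and 37.5 to 46.8 CPM in shLmna, the leukocyte markers, 2 of 5, to 15.3 to 17.3 and 18.4 to 24.4 CPM (Lyz2 at 3.92 to 7.19 and 12.8 to 15.7 CPM, Cd68 at 8.13 to 13.3 and 5.32 to 8.62 CPM), and the endothelial marker Pecam1, 1 of 4, lay below 3.19 CPM. The part of these cells in the results was not tested, and each called gene is therefore also given without shControl 3 and shLmna 2. In bulk RNA, fewer cells of a type and less RNA per cell cannot be told apart. The other unevenness is the GC content of the counted 3′ end, taken up after the genes.

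Of the 45 tested members 7 rose in shLmna cells and 2 fell. The genes that rose were the formins Fmnl2 and Fmnl3, the WAVE and N-WASP partners Abi1, Wasf1 and Wipf1, the capping protein subunit Capza2 and the coronin Coro1b. The genes that fell were the Arp2/3 subunit Arpc4 and the bundler Pls3. The 9 called genes (adjusted p below 0.05) are 20% of the tested members, beside a background of 13.7% of all tested genes. The 7 that rose are 15.6%, beside 7.96% of all tested genes, and the 2 that fell are 4.44%, beside 5.78%. By the fuller criteria of the study's methods, which ask for an adjusted p below 0.05, a change of more than 1 log2 unit either way and an average normalized count over 5, 4 members passed (Fmnl2, Capza2, Wipf1 and Abi1), 8.89% beside a background of 5.71%. In 13 members the 3 libraries of each group did not overlap, 28.9% beside 32.5% of all tested genes. The median log2 fold change was 0.09 over the members and 0.00 over all tested genes.

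**Figure D1:**
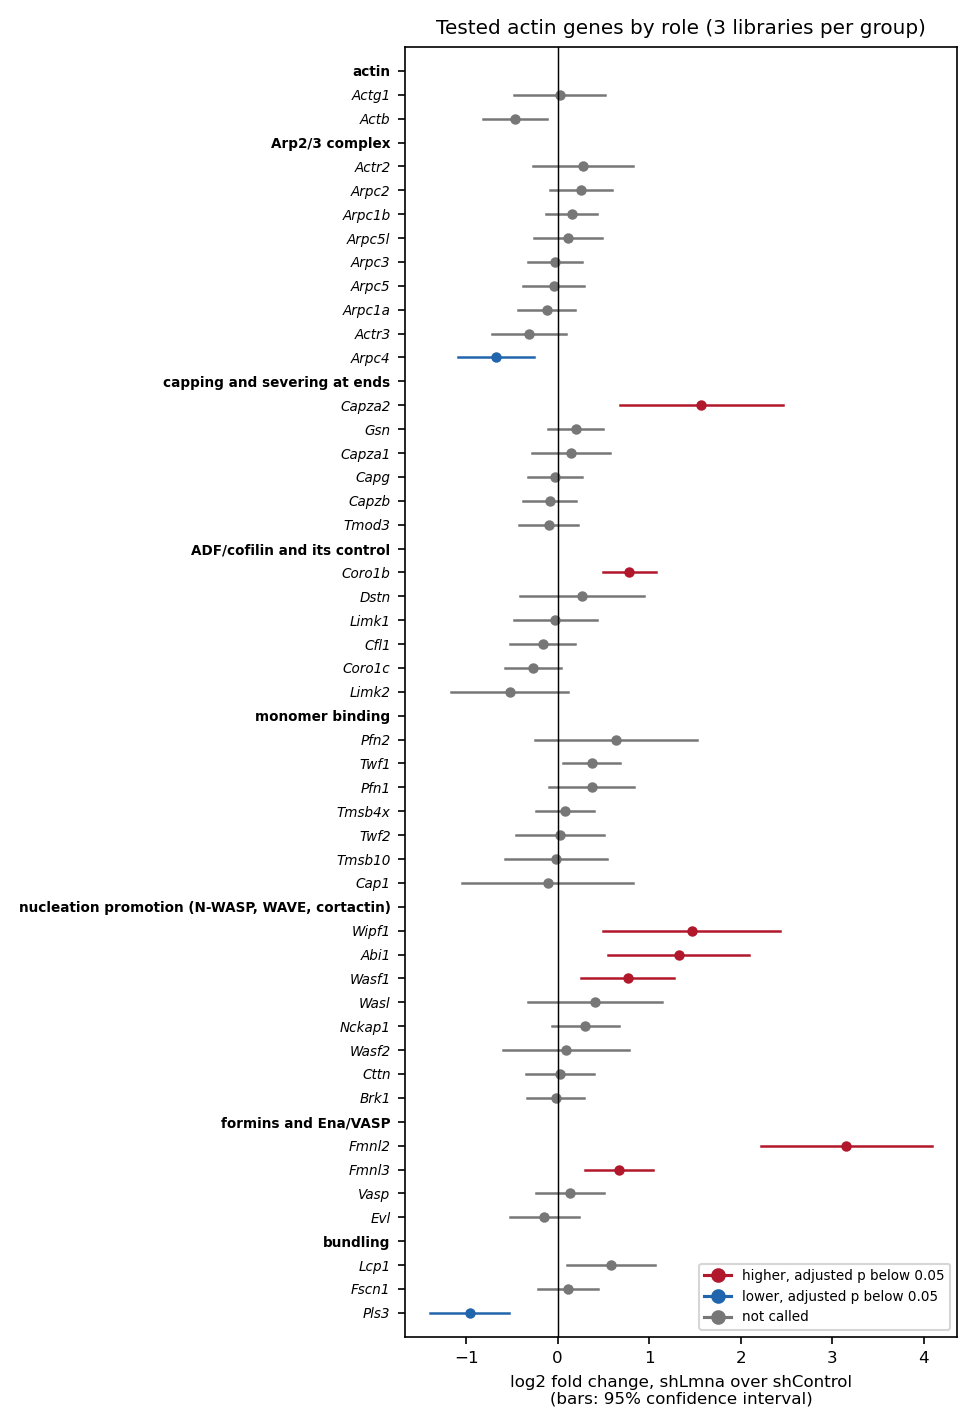
Log2 fold change of shLmna over shControl (x axis) for the 45 tested members, grouped by role, with 95% confidence intervals as bars. The 7 genes that rose lie to the right in red, with Fmnl2 at 3.15, the 2 that fell lie to the left in blue, and the 36 grey genes lie between -0.52 and 0.64.

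Most of the machinery did not pass the test. The 36 members that were not called had log2 fold changes between -0.52 and 0.64, and for 31 of them the 95% confidence interval lay within 1 unit of 0 on the log2 scale. The intervals of the other 5, Pfn2, Wasl, Lcp1, Cap1 and Limk2, reached further, so a change of 2-fold cannot be set aside for them at this depth.

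Promoter sequences are shown for 4 members. Among the tested members with a promoter sequence, Actg1 and Arpc4 held a CArG box. This is the site of serum response factor, which is known for driving actin genes. Fmnl2 and Pls3 are the members with the largest rise and the largest fall. Sequences are those of RefSeq on GRCm38.p6, written 5′ to 3′ on the gene's strand from 250 bases before to 50 bases after the gene start. Of the 45 tested members 38 were matched to a sequence. Actb, Coro1b, Arpc5l, Nckap1, Cttn, Twf2 and Tmod3 had none and were not searched for motifs. Capitals mark a CArG box, the GC box GGGCGG or the TEAD motif GGAATG, each searched on both strands, and no marked motif overlaps another.
Actg1, chr11:120348446-120348745, minus strand: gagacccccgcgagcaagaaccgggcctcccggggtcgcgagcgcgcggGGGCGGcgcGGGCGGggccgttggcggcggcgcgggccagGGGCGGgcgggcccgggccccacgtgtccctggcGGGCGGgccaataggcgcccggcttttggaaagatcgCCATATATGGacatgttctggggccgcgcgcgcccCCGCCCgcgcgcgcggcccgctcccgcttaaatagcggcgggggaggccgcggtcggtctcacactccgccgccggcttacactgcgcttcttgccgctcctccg
Arpc4, chr6:113377863-113378162, plus strand: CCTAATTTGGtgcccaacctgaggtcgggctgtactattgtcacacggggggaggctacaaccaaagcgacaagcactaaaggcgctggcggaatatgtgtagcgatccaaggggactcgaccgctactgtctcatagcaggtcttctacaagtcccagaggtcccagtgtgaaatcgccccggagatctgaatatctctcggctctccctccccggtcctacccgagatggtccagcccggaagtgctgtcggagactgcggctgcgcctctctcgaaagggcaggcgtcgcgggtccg
Fmnl2, chr2:52857618-52857917, plus strand: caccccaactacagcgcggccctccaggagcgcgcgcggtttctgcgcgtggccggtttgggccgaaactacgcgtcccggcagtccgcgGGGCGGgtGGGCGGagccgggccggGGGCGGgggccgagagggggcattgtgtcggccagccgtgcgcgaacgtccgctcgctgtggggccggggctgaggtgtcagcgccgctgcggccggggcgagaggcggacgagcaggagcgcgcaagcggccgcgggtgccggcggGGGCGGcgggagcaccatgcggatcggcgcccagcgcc
Pls3, chrX:75875133-75875432, minus strand, the first of 3 listed starts: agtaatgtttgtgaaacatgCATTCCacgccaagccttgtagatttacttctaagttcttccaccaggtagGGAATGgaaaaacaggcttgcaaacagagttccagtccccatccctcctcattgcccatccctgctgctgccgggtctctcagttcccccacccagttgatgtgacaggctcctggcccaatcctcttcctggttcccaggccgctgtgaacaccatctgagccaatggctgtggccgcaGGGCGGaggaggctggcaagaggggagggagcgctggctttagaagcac
Motifs were counted by gene, and a gene counted if any of its listed starts held the motif. A CArG box stood in 2 of the 38 members (5.26%). It stood in 1.57% of the tested genes with a sequence and in 1.81% of all 27025 genes with a promoter of this length. In Actg1 it began at position -90 from the gene start and in Arpc4 at position -250, the edge of the window. GGGCGG stood in 30 of 38 (78.9%), beside 72.4% of tested genes and 38.2% of all genes with a promoter. It occurred 5 times in Actg1, 4 times in Fmnl2, 1 time in Pls3 and not in Arpc4. GGAATG stood in 7 of 38 (18.4%), beside 13.9% and 16.6%, and occurred 2 times in Pls3, at positions -230 and -179. These are matches of letters and no measured binding.

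Neither actin gene was called. Actb, the main cytoplasmic actin (chr5:142903115-142906754), was at 7517, 5315 and 5285 CPM in shControl and at 4911, 4184 and 4035 CPM in shLmna. All shLmna libraries thus lay below all shControl libraries, but the log2 fold change of -0.46 ± 0.16 missed the threshold (edgeR adjusted p = 0.0722). DESeq2 gave an adjusted p of 0.0479, and without shControl 1, the highest library, the log2 fold change was -0.29 (edgeR adjusted p = 0.373), whereas without shControl 3 it was -0.56 (edgeR adjusted p = 0.0269). Actg1, which encodes the other cytoplasmic actin, was at 21.6, 20.6 and 35.5 CPM in shControl and 27.0, 25.3 and 25.0 CPM in shLmna (log2 fold change 0.02 ± 0.23). Actin genes have near-identical copies. At 95% identity over at least 60 bases the 3′ end of Actg1 matched transcripts of 5 pseudogenes and that of Actb 1. The counts of both, and the low level of Actg1 most of all, are therefore uncertain. Matches of this length to transcripts of other genes were found for 14 of the 46 matched members. The search did not leave out genes that overlap at the same place. For Actb, Actg1, Actr3, Arpc2, Capza1 and Tmsb10 the matches were to pseudogenes, and their counts carry the same limit. For Abi1, Arpc1b, Arpc4, Cap1, Cfl1, Coro1b, Coro1c and Evl no pseudogene was matched. In each of these another gene overlaps the counted end, so the match can be the overlap itself and no copy. The longest stretches were 1000 bases in Actr3 and 779 in Capza1 among the pseudogene matches, and 931 in Arpc1b and 432 in Coro1b among the others.

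Of the 9 subunit genes of the Arp2/3 complex Arpc4 alone was called, 11.1% beside 13.7% of all tested genes. Their summed level, to which Arpc1b and Arpc2 gave most, was 3155 ± 175 CPM (SD, n = 3) in shControl and 3241 ± 72.0 CPM in shLmna. Arpc4, a subunit that holds the complex together (chr6:113378115-113390448), was at 334, 231 and 370 CPM in shControl and at 225, 213 and 145 CPM in shLmna. The closest libraries, shControl 2 and shLmna 1, differed little, and the groups did not overlap. Arpc4 fell by 1.60-fold (log2 fold change -0.67 ± 0.19, edgeR adjusted p = 0.0313). The call was lost without shControl 1 (-0.63, adjusted p = 0.0754), shControl 3 (-0.54, 0.0547), shLmna 2 (-0.74, 0.0516) or shLmna 3 (-0.51, 0.153), and without both libraries with melanocytic genes (-0.60, edgeR adjusted p = 0.0557). Ttll3 has exons on the same strand over the counted end of Arpc4, so reads of the 2 genes cannot be fully told apart.

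Actr2 and Actr3, the actin-related pair at the start of each branch, were not called. Actr2 was at 86.3, 100.4 and 198 CPM in shControl and 116, 174 and 172 CPM in shLmna, and its groups overlapped (log2 fold change 0.28 ± 0.26). Without the libraries with melanocytic genes it rose by 0.62 on the log2 scale (edgeR adjusted p = 0.0397), and without shControl 3 alone by 0.71 (edgeR adjusted p = 0.0120). Actr3 was at 329, 272 and 198 CPM in shControl and 229, 168 and 247 CPM in shLmna (-0.32 ± 0.19). Its log2 fold change was -0.66 with a correction for GC content (edgeR adjusted p = 0.0657) and -0.72 with that correction and without the libraries with melanocytic genes (edgeR adjusted p = 0.0075), which is past the threshold. The other 6 subunit genes, Arpc1a, Arpc1b, Arpc2, Arpc3, Arpc5 and Arpc5l, had log2 fold changes between -0.12 and 0.26.

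Of the 8 tested genes that switch on the Arp2/3 complex 3 rose and none fell, all 3 in the WAVE and N-WASP complexes. These 3 are 37.5% of a small group, beside 7.96% of all tested genes that rose and 5.78% that fell. Abi1, an adaptor subunit of WAVE (chr2:22940073-23040241), was at 5.49, 21.3 and 32.4 CPM in shControl and at 46.5, 52.5 and 44.7 CPM in shLmna. The shLmna libraries lay close together, whereas shControl ranged widely with shControl 1 lowest. The rise was 2.50-fold (log2 fold change 1.32 ± 0.36, edgeR adjusted p = 0.0242) and was 1.71 on the log2 scale without the libraries with melanocytic genes (edgeR adjusted p = 0.00131). The call was lost without shControl 2 (1.41, adjusted p = 0.108), shLmna 1 (1.33, 0.0732), shLmna 2 (1.25, 0.0628) or shLmna 3 (1.37, 0.0893), and with DESeq2 (1.28, DESeq2 adjusted p = 0.210). Without shControl 1 the log2 fold change was 0.86 (edgeR adjusted p = 0.0296). Pdss1 lies over the counted end of Abi1 on the other strand.

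Wipf1, which encodes the N-WASP partner WIP (chr2:73429610-73529734), was low, with 2, 12 and 7 UMIs in shControl and 16, 20 and 19 UMIs in shLmna. These were 0.784, 3.75 and 3.71 CPM in shControl and 6.00, 7.34 and 10.1 CPM in shLmna, with every shLmna library above every shControl library. The rise was 2.76-fold (log2 fold change 1.46 ± 0.45, edgeR adjusted p = 0.0434), and 1.68 on the log2 scale without the libraries with melanocytic genes (edgeR adjusted p = 0.0405). Leaving out any library but shControl 3 ended the call, with log2 fold changes of 1.02 without shControl 1, 1.86 without shControl 2, 1.62 without shLmna 1, 1.5 without shLmna 2 and 1.27 without shLmna 3, and edgeR adjusted p-values of 0.0785 to 0.186. DESeq2 also made no call (1.49, DESeq2 adjusted p = 0.0766).

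Wasf1, which encodes WAVE1 (chr10:40883475-40938570), was at 13.3, 18.1 and 21.8 CPM in shControl and at 25.5, 36.7 and 27.1 CPM in shLmna. The groups did not overlap, and the rise was 1.70-fold (log2 fold change 0.77 ± 0.24, edgeR adjusted p = 0.0443). The call was likewise lost on leaving out any library but shControl 3, with 0.59 without shControl 1, 0.79 without shControl 2, 0.86 without shLmna 1, 0.58 without shLmna 2 and 0.82 without shLmna 3 (edgeR adjusted p = 0.0554 to 0.184), and without both libraries with melanocytic genes (0.72, edgeR adjusted p = 0.0741). DESeq2 also made no call (0.76, DESeq2 adjusted p = 0.0726).

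The paralogue Wasf2, which encodes WAVE2, was at 6.67, 8.44 and 9.02 CPM in shControl and 10.9, 8.81 and 5.32 CPM in shLmna (log2 fold change 0.09 ± 0.32). Nckap1, Brk1, Cttn and Wasl, which encode further WAVE subunits, cortactin and N-WASP, were not called, and their log2 fold changes lay between -0.02 and 0.41.

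Formins gave the largest change among the members. Fmnl2, a formin-like protein that extends filaments at the leading edge (chr2:52857860-53133804), had 2, 5 and 11 UMIs in shControl and 51, 52 and 53 UMIs in shLmna. These were 0.784, 1.56 and 5.84 CPM in shControl and 19.1, 19.1 and 28.2 CPM in shLmna, so that even the highest shControl library lay far below the lowest shLmna library. The rise was 8.90-fold (log2 fold change 3.15 ± 0.44, 95% confidence interval 2.22 to 4.09, edgeR adjusted p = 0.000282). It remained called in all 18 alternatives that gave a value, at 2.58 to 4.21 on the log2 scale. The value without the libraries with melanocytic genes was 4.21 (edgeR adjusted p = 1.12e-06), and without shControl 3 alone, which holds 11 of the shControl UMIs, it was 4.11.

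Fmnl3, a close relative of Fmnl2 (chr15:99317225-99370482), was at 71.8, 61.9 and 58.4 CPM in shControl and at 83.6, 99.1 and 125 CPM in shLmna. The groups did not overlap, and shLmna 3 was highest. The rise was 1.59-fold (log2 fold change 0.67 ± 0.17, edgeR adjusted p = 0.0197) and 0.64 on the log2 scale without the libraries with melanocytic genes (edgeR adjusted p = 0.0421). The call was lost without shControl 2 (0.64, adjusted p = 0.105) or shLmna 3 (0.51, adjusted p = 0.117). Vasp and Evl, of the Ena/VASP family that keeps barbed ends growing, were not called (log2 fold changes 0.13 and -0.15).

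**Figure D2:**
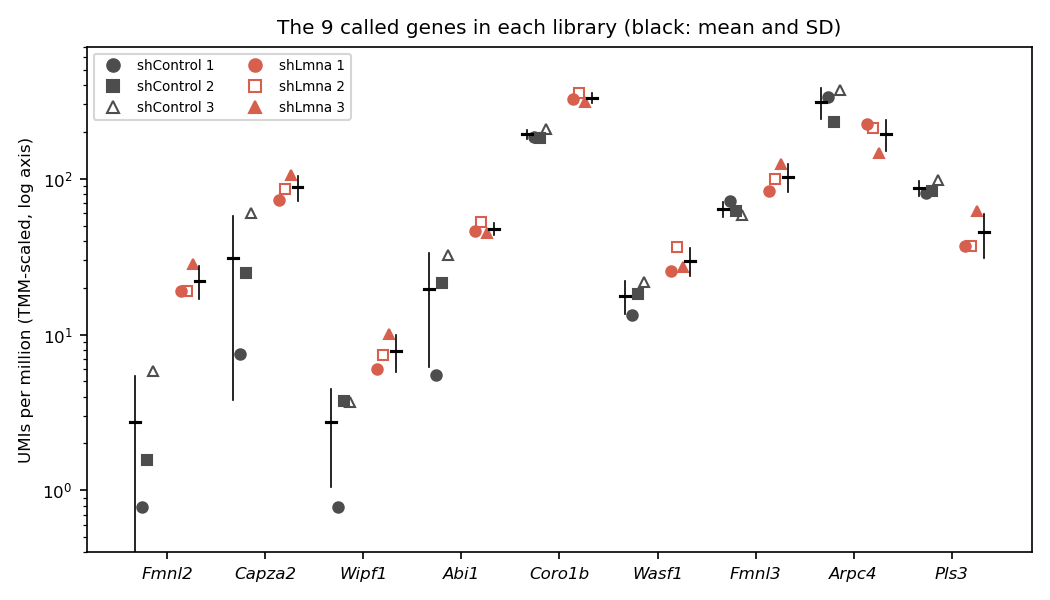
Level of each of the 9 called genes in the 6 libraries, in CPM (TMM-scaled) on a log axis, with shControl in grey, shLmna in red and the mean and SD in black. Open symbols are the 2 libraries with melanocytic genes, and the groups do not overlap in any of the 9 genes, as in 32.5% of all tested genes.

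No gene of monomer handling was called among 7, beside 13.7% of all tested genes that were called. Pfn1, the main profilin, was at 234, 159 and 140 CPM in shControl and 310, 198 and 180 CPM in shLmna (log2 fold change 0.37 ± 0.22, edgeR adjusted p = 0.287). Tmsb4x, which encodes the monomer-sequestering thymosin β4, was at 218, 209 and 222 CPM in shControl and 218, 195 and 274 CPM in shLmna (0.08 ± 0.15). Both overlapped between the groups. Twf1, a twinfilin that binds monomers and barbed ends, did not overlap, at 80.8, 76.3 and 79.6 CPM in shControl and 108, 92.1 and 106 CPM in shLmna, but it missed the threshold (log2 fold change 0.37 ± 0.15, edgeR adjusted p = 0.107).

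Among 6 capping genes 1 was called, and it rose. This is 16.7% of a small group, beside 13.7% of all tested genes that were called. Capza2, an α subunit of the barbed-end capping protein (chr6:17636234-17666972), was at 7.45, 24.7 and 60.5 CPM in shControl and at 73.1, 85.9 and 105 CPM in shLmna. The shControl libraries spread widely while those of shLmna lay close together, and shControl 3 came near the lowest shLmna library. The rise was 2.97-fold (log2 fold change 1.57 ± 0.42, edgeR adjusted p = 0.0210). It was 2.41 on the log2 scale without the libraries with melanocytic genes (edgeR adjusted p = 1.32e-05) and 1.07 without shControl 1 (edgeR adjusted p = 0.0337). Without shControl 3 alone it was 2.39 (edgeR adjusted p = 1.08e-05). The call was lost without shControl 2 (1.42, adjusted p = 0.151), shLmna 1 (1.67, 0.0557) or shLmna 3 (1.42, 0.131), and with DESeq2 (1.51, DESeq2 adjusted p = 0.220).

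The partners of Capza2 were not called. Capzb, the β subunit, was at 469, 413 and 494 CPM in shControl and 447, 448 and 398 CPM in shLmna (log2 fold change -0.09 ± 0.14). Capza1, the other α subunit, was at 58.8, 97.9 and 80.1 CPM in shControl and 86.2, 70.9 and 107 CPM in shLmna (0.14 ± 0.20). Gsn, Capg and Tmod3, which encode gelsolin, a gelsolin relative and the pointed-end cap tropomodulin 3, lay between -0.10 and 0.20.

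In the cofilin group Coro1b rose and Cfl1 did not pass the test. Coro1b, which encodes coronin 1B, a factor known for dissolving Arp2/3 branches (chr19:4148619-4154035), was at 186, 184 and 209 CPM in shControl and at 326, 355 and 310.0 CPM in shLmna. Replicates lay close together in both groups, which did not overlap, and the rise was 1.72-fold (log2 fold change 0.78 ± 0.14, edgeR adjusted p = 0.00164). Coro1b was called in all 19 alternatives, at 0.73 to 0.83 on the log2 scale, and at 0.79 without the libraries with melanocytic genes. Ptprcap on the same strand and Rps6kb2 on the other have exons over its counted end.

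Cfl1, the main cofilin and the highest member, was at 12942, 9133 and 10986 CPM in shControl and 11521, 9795 and 8165 CPM in shLmna (log2 fold change -0.17 ± 0.17). Cfl1 and Actb together held 57.5% to 70.2% of the members' UMIs, so the sum over the members mostly describes these 2 genes. The paralogue Cfl2 had 5, 2 and 2 UMIs in shControl and 10, 16 and 6 UMIs in shLmna, with no test. Coro1c, Limk1, Limk2 and Dstn were not called, between -0.52 and 0.27.

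Of 3 bundlers 1 was called, and it fell. This is 33.3% of a very small group, beside 13.7% of all tested genes that were called. Pls3, or plastin 3 (chrX:75785654-75875182), was at 80.4, 83.5 and 98.2 CPM in shControl and at 37.1, 37.1 and 61.7 CPM in shLmna. The groups did not overlap, with shLmna 3 nearest to shControl. Pls3 fell by 1.95-fold (log2 fold change -0.96 ± 0.20, edgeR adjusted p = 0.00582) and was called in all 19 alternatives, at -1.28 to -0.75. The value nearest to 0 was that without the libraries with melanocytic genes (-0.75, edgeR adjusted p = 0.0252). Lcp1, the leukocyte plastin, which carcinoma lines also express, was at 20, 29.1 and 35 CPM in shControl and 33.4, 48.5 and 43.6 CPM in shLmna, and its groups overlapped (0.59 ± 0.23, edgeR adjusted p = 0.100). Without shControl 3 its log2 fold change was 0.74 (edgeR adjusted p = 0.0295). Fscn1, or fascin, the filopodial bundler, was at 1224, 1354 and 986 CPM in shControl and 1309, 1114 and 1422 CPM in shLmna (0.11 ± 0.15).

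Because several members come as pairs of related genes, the share that the first gene held of the UMIs of its pair was compared in 13 pairs. In 4 of the 13 pairs the groups did not overlap, and the CPM of 32.5% of all single tested genes did not overlap either. Each of the 4 pairs holds a gene called from the same counts, so its share is no separate result. Capza1 held 88.8%, 79.8% and 57.0% of the Capza1 and Capza2 UMIs in shControl and 54.1%, 45.2% and 50.4% in shLmna. Coro1b held 34.2%, 34.3% and 40.5% of its pair with Coro1c in shControl and 53.3%, 53.3% and 55.8% in shLmna. Fmnl2 held 4.21% ± 4.28 (SD, n = 3) of its pair with Fmnl3 in shControl and 17.7% ± 1.37 in shLmna. Lcp1 held 24.0% ± 3.55 of its pair with Pls3 in shControl and 48.5% ± 7.68 in shLmna. With 3 libraries against 3 the smallest p of a two-sided exact permutation test is 0.1, which these 4 pairs reached, and the Benjamini-Hochberg adjusted value over 13 pairs was 0.325. The other 9 pairs overlapped, among them Tmsb4x with Tmsb10 at 55.2% ± 9.71 and 56.3% ± 11.4. Wasf1 with Wasf2, which also holds a called gene, overlapped at 68.5% ± 2.03 and 78.1% ± 7.10. The shares were not corrected for the GC content of the counted 3′ ends. It differs within pairs, at 33% for Fmnl2 and 54.1% for Fmnl3, and at 38.8% for Capza1 and 31.5% for Capza2.

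**Figure D3:**
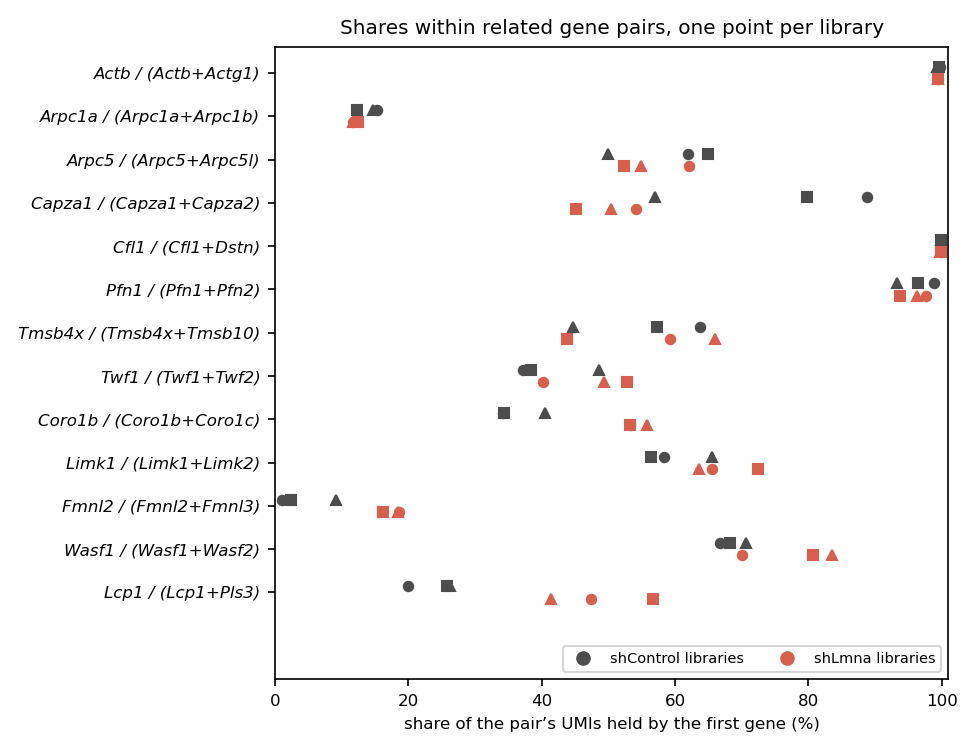
Share of the UMIs of each of 13 gene pairs held by the first gene (x axis, %), with 1 point per library, shControl in grey and shLmna in red, and circles, squares and triangles for replicates 1, 2 and 3. The groups separate in 4 pairs, Capza1 with Capza2, Coro1b with Coro1c, Fmnl2 with Fmnl3 and Lcp1 with Pls3.

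The counted 3′ ends of the called genes differed in GC content. Over the last 1000 bases of the transcript the median GC content was 33.1% for the 7 members that rose and 47.1% for all tested genes. Of the 6 tested members below 35% GC 4 rose (Capza2, Abi1, Fmnl2 and Wipf1, at 31.5%, 32.6%, 33% and 33.1%), and Actr2 and Tmod3 were not called. Of all 466 tested genes below 35% GC 24.0% rose and 1.29% fell, whereas of the 3414 genes at 50% GC and above 7.21% rose and 7.23% fell. The libraries of shControl differed among themselves in the same genes. The median deviation of the 6 members below 35% GC from their mean over all libraries was -1.88 in shControl 1, -0.39 in shControl 2 and 0.13 in shControl 3 on the log2 scale, and 0.53, 0.76 and 0.85 in the shLmna libraries. For all genes below 35% GC it was -0.46, -0.20 and 0.12 in shControl and 0.06, 0.33 and 0.26 in shLmna.

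With a correction for GC content fitted in each library, 5 of the 45 tested members rose and 3 fell, beside 8.12% of all tested genes that rose and 8.64% that fell in the same fit. Abi1 was then at 0.76 (edgeR adjusted p = 0.0816) and Wipf1 at 0.88 (edgeR adjusted p = 0.160), both no longer called. Capza2 was at 0.98 (edgeR adjusted p = 0.0434) and Fmnl2 at 2.58 (edgeR adjusted p = 0.000428). Actr2, of the same GC range, turned from 0.28 to -0.30, without a call, and Tmod3 fell by 0.72 (edgeR adjusted p = 0.0137). The genes of higher GC content moved less, with Coro1b at 0.78, Fmnl3 at 0.71, Wasf1 at 0.64 and Arpc4 at -0.65, while Pls3, at 37.0% GC, was at -1.26, and all 5 were called. Over all genes 714 rose and 518 fell without the correction and 728 rose and 775 fell with it, so the share of calls that rose went from 58.0% to 48.4% through more genes that fell and not through fewer that rose. With the replicate number as a block besides it was 47.5%. Whether the low-GC genes differ between the cells or between the libraries was not tested.

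**Figure D4:**
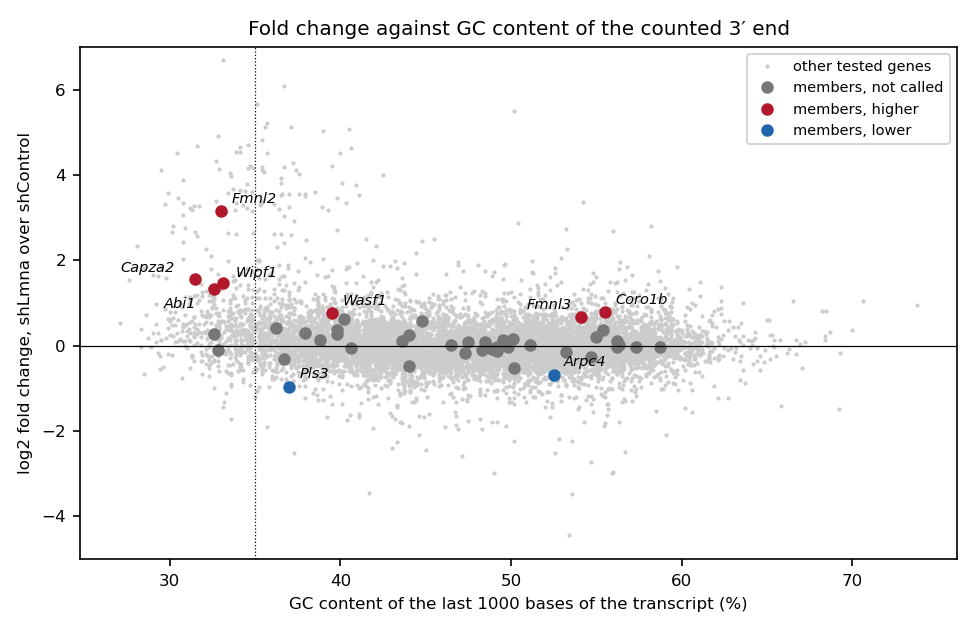
Log2 fold change of shLmna over shControl (y axis) against the GC content of the last 1000 bases of the transcript (x axis, %), for all tested genes in light grey and the members in colour. Of the 7 members that rose 4 lie left of the dotted line at 35% GC, and Wasf1, Fmnl3, Coro1b, Arpc4 and Pls3 lie to its right.

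**Figure D5:**
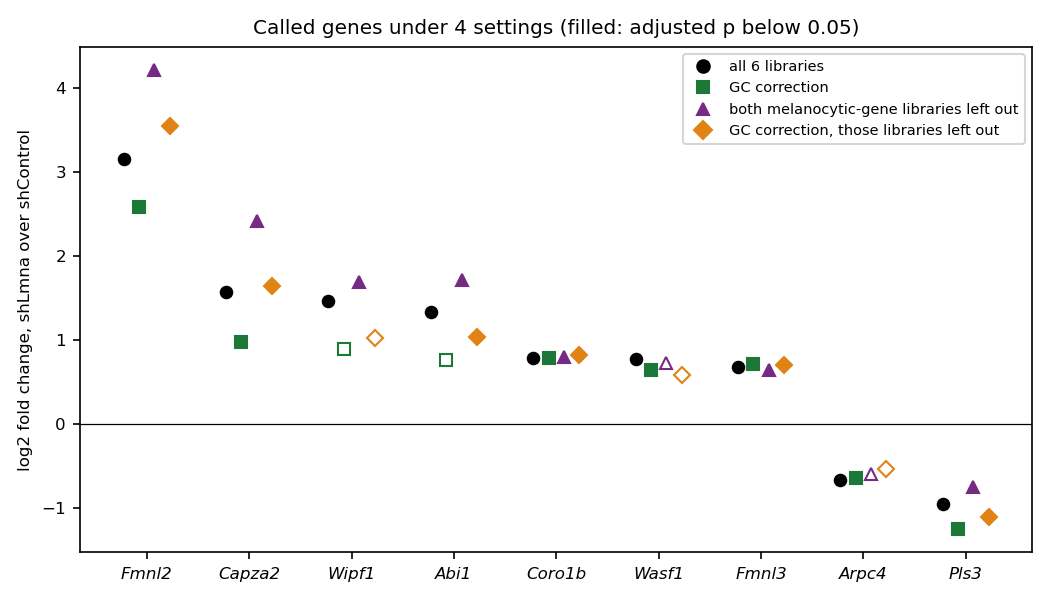
Log2 fold change of the 9 called genes (y axis) with all 6 libraries, with the GC correction, without the 2 libraries with melanocytic genes, and with both changes, where filled symbols have an adjusted p below 0.05. Fmnl2, Capza2, Coro1b, Fmnl3 and Pls3 are filled in all 4 settings, and all 9 genes keep their sign.

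Among related genes outside the list, 3 of 34 tested genes of other actin factors rose and none fell, and this 8.82% lies below the 13.7% of all tested genes that were called and near the 7.96% that rose. They were Gmfb, whose product unties Arp2/3 branches, at 3.31 ± 2.20 CPM in shControl and 20.5 ± 4.25 CPM in shLmna (log2 fold change 2.63), the formin Inf2 (0.86) and the actin-binding adaptor Lasp1 (0.72).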

How the data were processed

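MARS-seq libraries of E0771 cells, 3 shControl and 3 shLmna, were grouped by their genotype and description labels. The authors trimmed reads with Cutadapt, mapped them to mm10 with STAR 2.4.2a, and counted UMIs with a modified HTSeq-count from 1000 bases before to 100 bases after the 3′ end of RefSeq genes. The deposited counts are whole numbers without normalization, and whether counting used the strand is not given in the sources used here. The deposited ComBat values and the authors' DESeq2 comparison (fold changes and p-values) were not used, and 0 columns of per-library values were left unmapped.

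The analysis used edgeR 4.0.16 in R 4.3.3 (filterByExpr, minimum count 10, TMM factors, quasi-likelihood test, Benjamini-Hochberg adjustment over all 8969 tested genes, call at 0.05). Standard errors were calculated back from the test, as the absolute log2 fold change divided by the square root of the F statistic. The 95% confidence intervals were built from them with a t quantile. Levels are CPM, and values without a test have no fold. DESeq2 1.42.0, limma-voom (limma 3.58.1), RLE and upper-quartile factors, the replicate number as a block, no filter, a filter at a mean count of 50, a loess GC correction (span 0.3, degree 2), counts thinned to the smallest library, and leaving out each library were alternatives. Those on the libraries with melanocytic genes (above 100 UMIs of these markers) were added after seeing the data. Scripts were tested on simulated counts.

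Coordinates and GC content came from GENCODE M21 (GRCm38), by symbol for 10145 and by older symbol for 328 of 10520 genes. Copies were searched with BLAST 2.17.0. Figures were drawn with matplotlib 3.10.9. The members, lists and pairs were chosen with earlier results of these data known. Genes named are all called members, a core gene of each role (Actb, Actg1, Actr2, Actr3, Wasf2, Pfn1, Tmsb4x, Capzb, Cfl1 and Fscn1), Lcp1 to reach 20, called genes of the list of other actin factors, and Lmna. Another list of related genes is not reported here. Twf1, Capza1 and Cfl2 and genes given only by a range were named besides.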

Additional observations from a re-analysis of the deposited data

How the results depend on the processing

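Over 19 alternatives no called value changed its sign. Fmnl2, Coro1b and Pls3 were called in every alternative that gave a value for them. Of the other called genes Fmnl3 was called in 16 of 19, Capza2 in 15 of 19, Arpc4 and Abi1 in 12 of 19, Wasf1 in 8 of 19 and Wipf1 in 8 of 18. The 7 members that rose became 3 with DESeq2, which made no call for Capza2, Abi1, Wipf1 and Wasf1, 4 with a mean count of at least 50, and 2 to 9 on leaving out 1 library. The 2 that fell became 1 to 2 on leaving out 1 library and 1 without both libraries with melanocytic genes. They became 3 with DESeq2, with the replicate block, with the GC correction and with the melanocytic libraries as a term. The GC correction without these libraries also gave 3. The 4 members past the fuller criteria became 1 with DESeq2, 2 with a mean count of at least 50, 2 with the GC correction and 1 to 4 on leaving out 1 library. The 2 with the GC correction were Fmnl2 and Pls3, which fell and was not among the 4. Capza2 was then at 0.98, below 1 log2 unit, and Abi1 and Wipf1 were not called. In the list of other actin factors the 3 that rose became 5 with the melanocytic libraries as a term, and the 0 that fell became 2 with the GC correction, 1 with the GC correction and the replicate block, 1 with the melanocytic libraries as a term and 2 with the GC correction without these libraries. The cause was not tested.

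Deviations of each library from its group mean were correlated between the groups. Libraries with the same replicate number gave correlations of 0.351, -0.115 and 0.00439 for numbers 1, 2 and 3. Those with different numbers gave -0.364 to 0.349, the highest between shControl 3 and shLmna 2, the 2 libraries with melanocytic genes. With 3 libraries per group these values cannot show whether the numbers pair the libraries. With the replicate block 8 of 45 members rose and 3 fell, beside 8.62% and 6.43% of all tested genes, the 9 called genes among them, and Lcp1 (0.60, edgeR adjusted p = 0.0442) and Actb (-0.45, edgeR adjusted p = 0.0464) were added. With counts thinned to the smallest library Wipf1 was still called (1.48, edgeR adjusted p = 0.0374) and Wasf1 was not (0.62, edgeR adjusted p = 0.115).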

Other observations

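Genes outside the list, picked after their values were seen, bear on its actin and formin members. The muscle actins, which are no members, rose in shLmna cells. Acta2, the smooth muscle actin, was at 2.75, 4.06 and 1.59 CPM in shControl and at 9.74, 15.1 and 16.5 CPM in shLmna (log2 fold change 2.18, edgeR adjusted p = 0.00147). Acta1, the skeletal actin, was at 5.88, 4.38 and 4.77 CPM and at 19.5, 11.7 and 21.8 CPM (1.80, edgeR adjusted p = 0.00191). Actg2, the enteric actin, was at 65.9, 54.1 and 56.8 CPM and at 102, 103 and 150 CPM (1.00, edgeR adjusted p = 0.00215). In all 3 genes every shLmna library lay above every shControl library, whereas Actb lay lower in every shLmna library without a call. Groups without overlap, in either direction, were found in 32.5% of all tested genes. Acta2 is also among the fibroblast markers, and copies of these genes were not searched.

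Diap1 and Diap3 are RefSeq synonyms of the members Diaph1 and Diaph3, and were not counted as members. Diap1 was at 108 ± 7.72 CPM in shControl and 103 ± 21.2 CPM in shLmna (SD, n = 3 each), with a log2 fold change of -0.07. Diap3, with 4 to 30 UMIs per library, was at 4.31, 9.38 and 6.90 CPM in shControl and at 4.87, 3.30 and 2.13 CPM in shLmna (-0.97, edgeR adjusted p = 0.134), and its groups overlapped.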
